A study of Mus musculus with 2 samples.

Results

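Imprinted genes are expressed from a single parental copy, which is chosen by DNA methylation laid down in the germ line, and many of them set the growth of the embryo and placenta. They lie in clusters in which neighbouring genes share a control region, so that protein-coding genes and long non-coding RNAs of one cluster are often transcribed from opposite parental chromosomes. In growing connective tissue several of them are high before birth and are silenced after it. The genes followed here, H19, Dlk1, Meg3, Mest, Peg3, Cdkn1c, Plagl1, Grb10, Ndn and Peg10, are 10 such regulators, measured in fibroblasts cultured from mouse embryos (MEFs) with and without the Hippo pathway kinase Lats2. The members were picked by the gene name printed for each probe on the array, which found 9 of the 10 genes with 16 of the 41174 probes, which carry 27745 gene names in all. Meg3 is printed there under its older symbol Gtl2, a synonym in RefSeq, and its 4 probes brought the total to 10 genes and 20 probes.

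The MEFs came from C57BL/6J mice of the genotypes LATS2-/- (KO) and LATS2+/+ (WT), which the sample sources spell LAT2-/- and LAT2+/+, and were untreated. Each of 2 Agilent arrays of the mouse genome received both RNAs at once, with the RNA labelled KO in the red dye Cy5 and the RNA labelled WT in the green dye Cy3 on the first array and the dyes exchanged on the second. Nothing in the labels says that the 2 arrays used separate RNA preparations, so they were counted as 1 technical replicate, and the values below carry no test or p-value. The number of embryos behind each RNA and the passage of the cells are not given in the sources used here, and the probes read total RNA without telling the parental copies apart.

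Of the probes, 23751 to 24946 were well above the local background in a given RNA on a given array. Most probes of the targeted gene were not lower in the RNA labelled KO. Lats2 has 4 probes, of which 3 gave log2 ratios of KO over WT above 0, at 0.56, 0.56 and 0.63, and 1 gave -0.35. The deleted part of the gene is not given in the sources used here, and a probe outside it checks nothing. Every direction below therefore rests on the labels. Of the fibroblast markers, 11 of 12 had a value. In the RNA labelled WT all 11 were above background, whereas in the RNA labelled KO 10 were. The exception was Vim, which read 74.8 and 79.2 there against 130 and 156 in the RNA labelled WT. Vim is named after its values were seen. None of 6 endothelial markers was above background in either RNA.

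Levels are given as normalised intensity, in arbitrary units that can be compared between the RNAs for a given probe but not between probes, and probes not above background had a median of 64.6. A difference is the log2 ratio of the RNA labelled KO over the RNA labelled WT, as the mean of both arrays, and where a gene had several probes the brightest stands for it. A gene was called higher or lower when the difference was at least 2-fold in that direction on each array and the probe was well above background in the higher RNA. Between the arrays a log2 ratio varied with an SD of 0.12 to 0.15, depending on intensity, and the mean of both with 0.084 to 0.10.

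Of the 10 members 4, Dlk1, Meg3, Grb10 and Ndn, were called higher in the RNA labelled KO and 0 were called lower. Over all 15877 genes above background, 5.56% were called, 2.95% higher and 2.61% lower. With median centring in place of loess the calls over all genes split as 250 higher (1.57%) and 138 lower (0.869%), against 469 and 414 here, and 3 members were called higher. The 6 members that were not called lay between -0.21 and 0.70, and 1 of these, Peg10, was not above background in either RNA. The median over the 10 members was 0.38, beside -0.0037 over all genes above background. The members were chosen with earlier results of these data known, so these comparisons with all genes are a description only. In the order of differences from the highest, Dlk1 was 15th of 15877, Meg3 37th, Grb10 83rd and Ndn 384th.

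**Figure D1:**
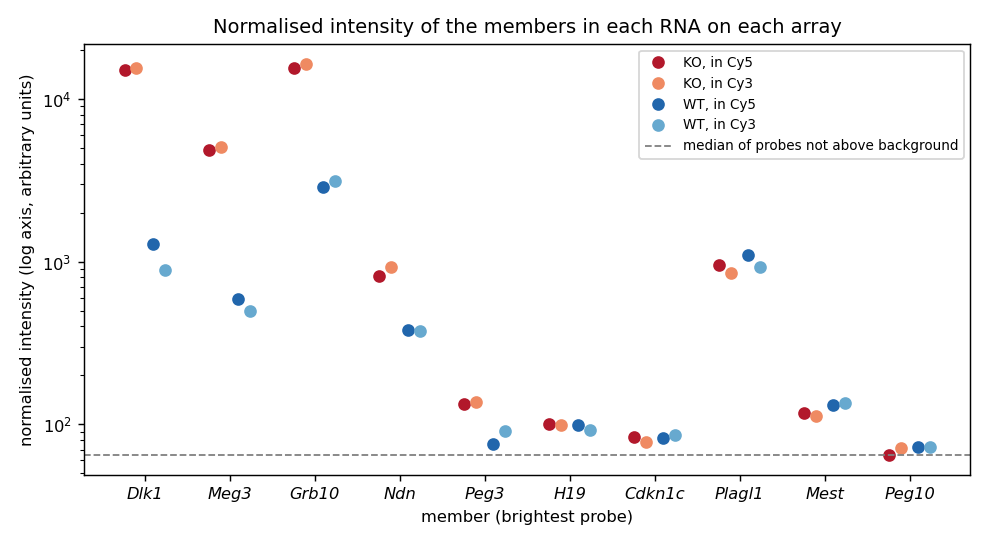
Normalised intensity (log axis, arbitrary units) of the brightest probe of each member in the RNA labelled KO (red and orange) and the RNA labelled WT (blues) on each array; the dashed line is the median of probes not above background. For Dlk1, Meg3, Grb10 and Ndn both KO points lie well above both WT points, and Peg10 sits at the dashed line in all 4 measurements.

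**Figure D2:**
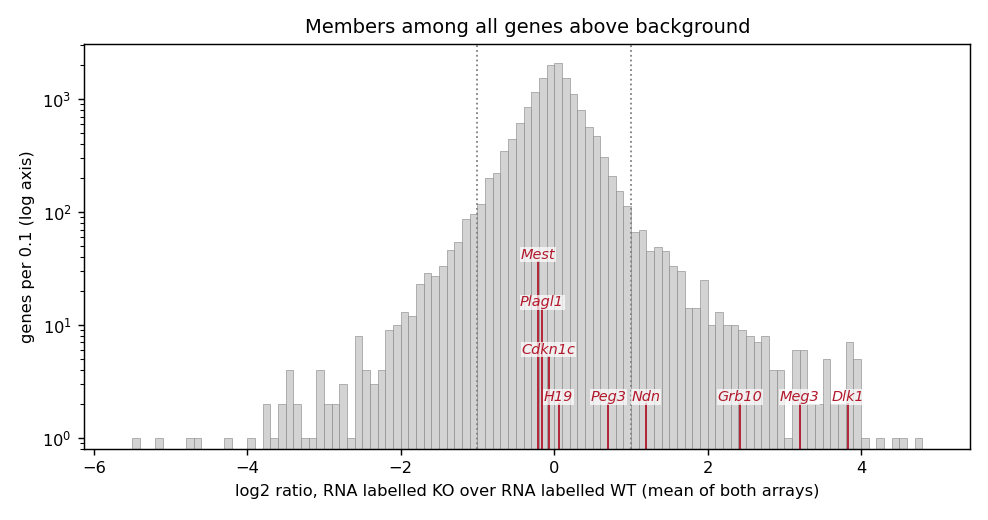
Histogram of log2 ratios (KO over WT, mean of both arrays) of all 15877 genes above background, with genes per bin on a log axis and the 9 members above background marked in red; dotted lines mark 2-fold. Dlk1, Meg3 and Grb10 stand in the sparse right tail at 3.83, 3.20 and 2.42, and Mest, Plagl1, Cdkn1c and H19 stand in the central peak.

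Dlk1 encodes a membrane protein related to the Notch ligands that holds back the maturation of preadipocytes and is transcribed from the paternal chromosome. Its brightest probe, in mm8 at chr12:109908264-109908323, read 14939 and 15574 in the RNA labelled KO and 886 and 1291 in the RNA labelled WT. Both KO values were more than 10 times the WT value of the same array. The mean log2 ratio was 3.83, or 14.3-fold, with 4.08 on the array with KO in Cy5 and 3.59 on the other. The 2 arrays differed here by more than their usual spread of 0.14, but by far less than the ratio itself. A separate Dlk1 probe gave 3.79, with KO values of 3344 and 2971 and WT values of 220 and 236.

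Meg3 is a long non-coding RNA transcribed from the maternal chromosome next to Dlk1 and is known as a growth suppressor in several tumours. Its brightest probe, at chr12:110019275-110019334 in mm8, read 4849 and 5066 in the RNA labelled KO and 496 and 588 in the RNA labelled WT. The log2 ratio was 3.20, or 9.18-fold, with 3.29 and 3.11 on the single arrays. The next brightest probe gave 2.97. On the remaining 2 probes the RNA labelled WT was not well above background on either array, so that only bounds can be given. The RNA labelled KO was at least 2.54-fold higher on one and at least 1.84-fold higher on the other, with measured log2 ratios of 1.34 and 0.88. All 4 probes of Meg3 and both of Dlk1 thus pointed the same way on both arrays, and 5 of the 6 met the 2-fold call.

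Dlk1 and Meg3 open the imprinted domain on chromosome 12 that ends at Dio3, and the other genes of that domain were measured as well. Mirg and Rian are maternally expressed non-coding RNAs that host microRNAs and small nucleolar RNAs, and Dio3 is the enzyme that inactivates thyroid hormone. RefSeq places 58 microRNA genes between the start of Meg3 and the end of Dio3. Mirg was called higher at a log2 ratio of 1.74, with 264 and 204 against 78.1 and 61.7 and a bound of at least 3.34-fold. Rian, at 1.09, narrowly missed the call because one array gave 0.96, and was at least 2.12-fold higher. Dio3 was at least 1.42-fold higher, at 0.55, and was not called. In the ratios of the scanner software Mirg gave 4.79, Rian 4.29 and Dio3 3.64, beside 3.95 at the brightest Dlk1 probe. All 3 were called there, beside 5.93% of all genes called higher in that setting. None of these 3 genes was above background in the RNA labelled WT, whereas all were in the RNA labelled KO. Rian and Dio3, like Wdr25 below, are named here as the domain's measured genes or flank, after their values were seen.

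The higher readings lay inside the domain on the array's map. From the first Dlk1 probe to the Dio3 probe, over 821 kb, 17 probes had values, of which 12 were above background in the RNA labelled KO and 5 in the RNA labelled WT. Of the 17, 7 were called higher, 5 of them the probes of Dlk1 and Meg3 given above, with the Mirg probe and a probe for the transcript AI850416, at 1.95, which lies among the Meg3 probes. The other probe above background in both RNAs, NAP070880-1, gave 0.10, with 4352 and 5202 against 4598 and 4297. These probes are named after their values were seen. Before Dlk1, 2 probes of Wdr25, the farther at -434 kb, gave 0.37 and 0.08, and of the 13 probes from 1084 to 1279 kb beyond the brightest Dlk1 probe 0 were called, with log2 ratios of -0.09 to 0.38 among the 10 above background. Of the domain's list, Rtl1 and Begain had no probe value here.

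**Figure D3:**
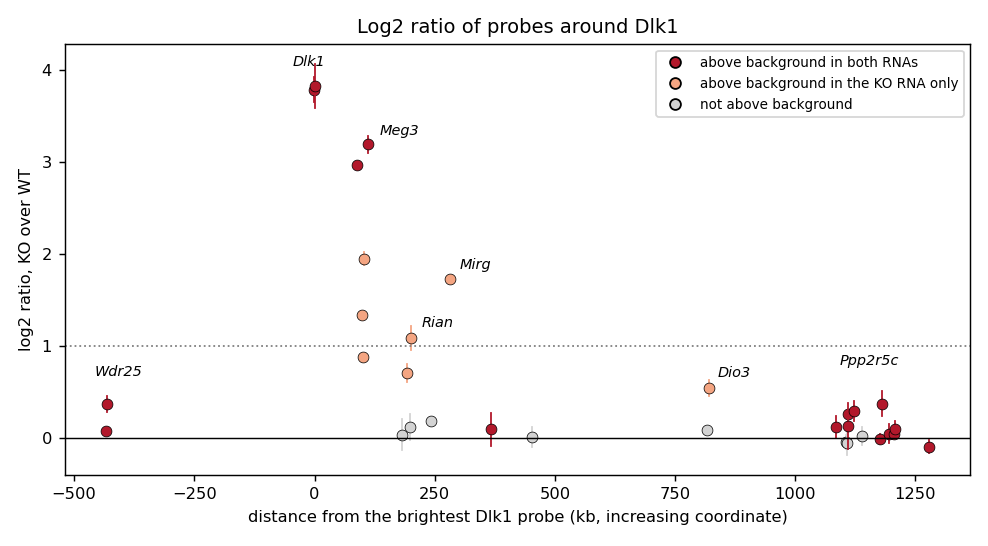
Log2 ratio (KO over WT) of every probe with a value around Dlk1, against distance in kb from the brightest Dlk1 probe; points are means of both arrays, vertical lines join the arrays, and colour shows whether the probe was above background in both RNAs, in the RNA labelled KO alone or in neither. The ratios are highest at Dlk1 and Meg3, reach 1.74 at Mirg and 0.55 at Dio3, and stay under 0.38 in the flanks on either side. The offset pulls dim ratios towards 0. In the scanner software's ratios, not drawn, Mirg gave 4.79 and Dio3 3.64, beside 3.95 at the brightest Dlk1 probe.

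The sequences in front of the called members are shown because these 4 genes were called in the same direction. Each is the 250 bases before the start that RefSeq gives on GRCm38.p6, 5′ to 3′ on the strand of the gene, and these coordinates are not on the build of the probes. Dlk1 is chr12:109452573-109452822 on the plus strand, Meg3 is chr12:109540746-109540995 on the plus strand, Grb10 is chr11:12037421-12037670 on the minus strand and Ndn is chr7:62348027-62348276 on the plus strand. Peg3, chr7:6730420-6730669 on the minus strand, is added because it holds letters that the other 4 do not. Capitals mark every match, on either strand, to GGAATG (the core bound by TEAD factors, the partners of YAP in the Hippo pathway), GGGGCCCC (the motif bound by the member PLAGL1) or TATAAA (the TATA box).
Dlk1: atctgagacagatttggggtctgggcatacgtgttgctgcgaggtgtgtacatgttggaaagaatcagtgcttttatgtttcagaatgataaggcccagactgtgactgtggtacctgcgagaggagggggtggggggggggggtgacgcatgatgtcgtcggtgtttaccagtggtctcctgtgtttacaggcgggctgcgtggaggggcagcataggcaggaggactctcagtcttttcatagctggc
Meg3: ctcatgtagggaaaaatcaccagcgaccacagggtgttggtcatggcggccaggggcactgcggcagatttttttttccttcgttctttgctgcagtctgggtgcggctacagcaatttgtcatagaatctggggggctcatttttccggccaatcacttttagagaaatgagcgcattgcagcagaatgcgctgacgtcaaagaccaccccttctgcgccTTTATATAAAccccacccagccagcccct
Grb10: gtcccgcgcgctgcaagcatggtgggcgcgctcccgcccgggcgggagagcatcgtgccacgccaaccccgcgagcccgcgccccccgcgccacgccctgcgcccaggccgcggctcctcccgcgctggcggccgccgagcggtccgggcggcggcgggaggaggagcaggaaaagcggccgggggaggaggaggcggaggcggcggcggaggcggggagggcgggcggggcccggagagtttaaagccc
Ndn: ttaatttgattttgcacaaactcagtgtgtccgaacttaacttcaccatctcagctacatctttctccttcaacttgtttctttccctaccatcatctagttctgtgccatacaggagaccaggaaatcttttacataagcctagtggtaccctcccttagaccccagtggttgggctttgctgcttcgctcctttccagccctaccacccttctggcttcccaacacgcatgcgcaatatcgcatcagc
Peg3: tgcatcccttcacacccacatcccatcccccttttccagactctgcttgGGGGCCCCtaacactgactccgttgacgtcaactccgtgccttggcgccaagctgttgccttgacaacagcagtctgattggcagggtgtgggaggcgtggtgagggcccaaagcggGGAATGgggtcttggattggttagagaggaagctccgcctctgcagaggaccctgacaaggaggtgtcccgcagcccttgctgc
GGAATG or its reverse was found in 12.6% of all 32851 RefSeq windows of this length, GGGGCCCC in 0.889% and TATAAA in 12.4%. Of the 5 printed, Peg3 held 1 match to GGAATG and 1 to GGGGCCCC, and Meg3 held TATAAA on each strand in 1 overlapping run just before its start. Dlk1, Grb10 and Ndn held none of the 3. The windows also differed in CpG content. Grb10 had 40 CpG in 250 bases, more than 98.7% of all windows, against 10 for Meg3, 8 for Dlk1, 8 for Peg3 and 5 for Ndn, and a median of 6 over all. Grb10 and Meg3 each have a further start in the table that is not printed, with 8 CpG for Grb10 and 0 for Meg3, so the counts depend on the start chosen. A match is a string of letters, and binding was not measured.

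Grb10 is an adaptor protein that binds the insulin and IGF1 receptors and dampens their signal, and it is maternally expressed in most tissues outside the brain. Its brightest probe, at chr11:11830965-11831024 in mm8, read 15545 and 16477 in the RNA labelled KO and 3109 and 2870 in the RNA labelled WT. Both KO values were far above both WT values, at a log2 ratio of 2.42 or 5.36-fold, with 2.32 and 2.52 on the single arrays. The other 2 probes gave 1.74 and 1.27, and all 3 were called higher. These differences between probes shrink in the ratios of the scanner software, where the 3 probes gave 2.44, 2.32 and 2.35.

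Genes that work with the members were read beside them. Igf1, the growth factor whose receptor Grb10 binds, was called higher at 3.50, with 1964 and 1872 against 175 and 164. It was the single gene called among the 16 measured partners, a list whose median was -0.04. Igf2, the fetal growth factor encoded beside H19, read 67.3 and 81.7 in the RNA labelled KO, where it was not above background. It read 112 and 121 in the RNA labelled WT, was thus at least 1.56-fold lower at a log2 ratio of -0.65, and was not called. In the ratios of the scanner software the same probe gave -2.70 and was called lower, beside 5.45% of all genes called lower in that setting. The other Igf2 probe, above background in neither RNA, gave -0.13. Igf2r, which clears IGF2 from the cell surface, gave -0.14 and was not called. Cobl, an actin nucleator next to Grb10, was called higher at 3.54, with 1590 and 1323 against 143 and 108.

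Ndn encodes necdin, a MAGE family protein that restrains proliferation and is transcribed from the paternal chromosome in the Prader-Willi region. Its single probe, at chr7:62227911-62227970 in mm8, read 810 and 926 in the RNA labelled KO and 374 and 381 in the RNA labelled WT. Both KO values exceeded 2 times both WT values, and the log2 ratio was 1.20, or 2.30-fold, with 1.12 and 1.28 on the single arrays. With median centring in place of loess Ndn was not called. Of the 7 listed neighbours in its domain 0 were called. Peg12, the neighbour with the largest difference, gave 0.92 with 0.91 and 0.93 on the single arrays. Snrpn gave 0.86 and Snurf 0.60, and Mkrn3 gave 0.28. Magel2, above background in neither RNA, gave -0.03. Ube3a and Atp10a, at the other end of the region, gave -0.13 and -0.34. These genes are named to complete the region, after their values were seen.

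Peg3 is a paternally expressed zinc finger protein linked to fetal growth and maternal behaviour. Among the members above background, its value depended most on how the scans were treated. Its brightest probe read 134 and 137 in the RNA labelled KO and 90.5 and 76.1 in the RNA labelled WT. Both KO values were above both WT values, all within about 2 times the median of probes not above background. The log2 ratio was 0.70, with 0.57 and 0.84 on the single arrays, and Peg3 was not called. In the ratios of the scanner software the same probe gave 2.03 and was called, beside 5.93% of all genes called higher and 5.45% lower in that setting. The next brightest probe, above background in neither RNA, gave -0.01, and the dimmest, with the RNA labelled WT not above background, gave 0.40.

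**Figure D4:**
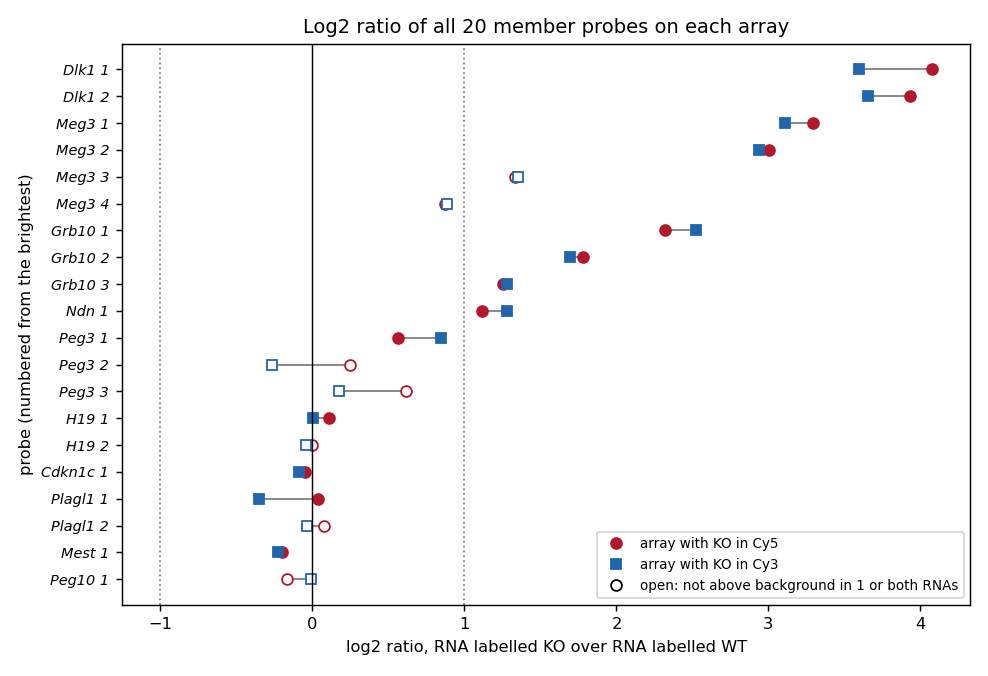
Log2 ratio (KO over WT) of each of the 20 member probes on the array with KO in Cy5 (red circles) and the array with KO in Cy3 (blue squares), numbered within a gene from the brightest; open symbols mark probes not above background in 1 or both RNAs, and dotted lines mark 2-fold. All 10 probes of Dlk1, Meg3, Grb10 and Ndn lie to the right of 0.8 on both arrays, and the arrays lie on opposite sides of 0 for the second Peg3 probe and both Plagl1 probes.

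The other 5 members gave small ratios. H19, the maternally expressed non-coding RNA beside Igf2 that is abundant in fetal tissue and hosts Mir675, read 99.8 and 98.7 in the RNA labelled KO and 92.5 and 98.3 in the RNA labelled WT. The log2 ratio was 0.06, within the spread between arrays. Its other probe was above background in neither RNA. Cdkn1c encodes p57KIP2, an inhibitor of cyclin-dependent kinases, and read 83.5 and 77.7 against 86.5 and 82.6, a log2 ratio of -0.07. Both genes thus lay near background in both RNAs, so that a lower level in either would have been hard to see.

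Plagl1, a zinc finger transcription factor that stops the cell cycle and acts on other imprinted genes, was well above background. It read 953 and 855 in the RNA labelled KO and 929 and 1092 in the RNA labelled WT. The levels overlapped, and the single arrays gave 0.04 and -0.35 with a mean of -0.16. Mest, a paternally expressed membrane enzyme tied to fetal growth, read 118 and 112 against 135 and 132. All KO values were below all WT values, at a log2 ratio of -0.21, or 1.16-fold, which exceeds the usual spread of 0.085 for the mean of both arrays but was far from the 2-fold call. Peg10, a gene derived from a retrotransposon that the placenta needs, read 64.6 and 71.9 against 72.4 and 72.3 and was not above background in either RNA on either array, so that its ratio carries no direction. The scanner software's ratio of -1.45 for this probe rests on signals that are not above background.

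**Figure D5:**
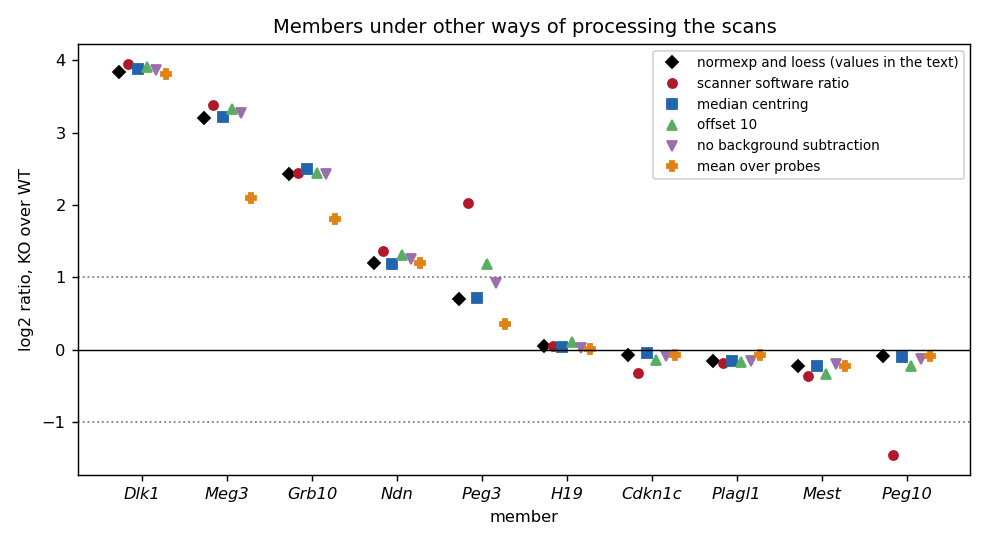
Log2 ratio (KO over WT) of each member under 6 ways of processing the scans, with dotted lines at 2-fold. Dlk1, Meg3, Grb10 and Ndn stay above 1 in every way drawn, Peg3 runs from 0.36 to 2.03, and Peg10, not above background, drops to -1.45 in the scanner software's ratios alone.

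The called members did not belong to a single parental origin. Of the 4 members expressed from the maternal chromosome, Meg3 and Grb10 were called higher and H19 and Cdkn1c were not. Of the 6 expressed from the paternal chromosome, Dlk1 and Ndn were called higher and Mest, Peg3, Plagl1 and Peg10 were not. The medians were 1.24 and 0.31. Dlk1 and Meg3 were neighbours on chromosome 12, and Grb10 and Ndn lay on chromosomes 11 and 7.

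Among 67 other imprinted genes or neighbours listed, 60 had a value and 40 were above background. Cobl, Mirg and Phactr2 were called higher, which makes 3, and 0 lower, and the median over the 60 was 0.0017. Phactr2, an actin and phosphatase regulator next to Plagl1, gave 1.87 with 338 and 286 against 96.2 and 74.9, although Plagl1 itself was not called. No gene was called around H19 and Kcnq1, where Cars, a transfer RNA synthetase, gave -0.68, the largest among genes above background in both RNAs. Around Peg10 the largest was Ppp1r9a, a neuronal scaffold protein, at 0.92, around Mest it was Copg2, a coat protein subunit, at 0.46, and around Peg3 it was Usp29, a ubiquitin protease, at -0.08. Of imprinted genes elsewhere 0 were called, and Impact, a translational regulator, was the largest at 0.81.

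Factors that keep imprints in place were measured too. Of the 11 with a value 0 were called, and Ctcf, the insulator protein that binds the H19 and Meg3 control regions, was the largest at -0.72, with 1667 and 1506 in the RNA labelled KO and 2491 and 2723 in the RNA labelled WT. The median of the list was -0.19. DNA methylation was not measured.

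Some markers of growth state and of other cell types were also called, though most were not. Of 12 proliferation genes 2 were called lower, Mki67 at -1.78 and Plk1 at -1.08, and all 12 had ratios below 0 with a median of -0.65. Their summed intensity was 78145 and 74938 in the RNA labelled KO and 132135 and 136855 in the RNA labelled WT. Of 7 adipocyte markers 4 were above background and 2 were called higher, Pparg, the transcription factor that drives fat cell formation, at 2.83 and Lpl, a lipase, at 2.78. The summed intensity of the 7 markers was 5628 and 4961 against 1101 and 1140, most of it from Pparg and Lpl. Pparg read 2438 and 2204 against 323 and 327, and Lpl read 2748 and 2326 against 347 and 391. Adipoq, Plin1 and Cidec, which mark mature fat cells, were above background in neither RNA. Cebpa, another transcription factor of fat cell formation, pointed the other way at -0.70, with 92.4 and 99.4 against 151 and 160. The other Cebpa probe gave -0.07. Fabp4, also on the adipocyte list, was above background in the RNA labelled KO alone, with 149 and 124 against 78.6 and 62.1. By this probe, the brightest, it was at least 1.95-fold higher and was not called. The log2 ratios of its 3 probes ran from 0.03 to 0.96. Of the fibroblast markers Postn, a matrix protein, was called lower at -1.69, and the summed intensity of the list was 147134 and 134932 against 212724 and 216287. Postn itself read 22866 and 19625 against 71654 and 65633, a large part of that gap. Of the 11 fibroblast markers 3 had ratios above 0, among them Fn1, the matrix protein fibronectin, at 0.89. Cebpa, Fabp4, Fn1 and the markers of mature fat cells are named after their values were seen.

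From 3 more marker lists a single gene each was called higher. These were the keratin Krt19 at 2.12, the lysozyme gene Lyz2, 2.15-fold higher, and the placental hormone Prl3d1, 2.14-fold higher. Krt19 was among 6 epithelial markers, of which 5 were above background in neither RNA. Lyz2 was among 6 leukocyte markers, of which 3 were above background in neither. Lyz2 was called by its brighter probe, and its other probe gave a log2 ratio of 0.13. Prl3d1 was among 7 trophoblast and yolk sac markers, of which 6 were above background in neither. The summed intensities were 705 and 638 against 427 and 395 for the epithelial list, 1678 and 1639 against 1002 and 955 for the leukocyte list and 667 and 625 against 505 and 483 for the trophoblast and yolk sac list, and most of each gap came from the called gene alone. Of the muscle, neural and cartilage lists 0 were called, with Acta1 at 0.26, Nes at -0.30 and Sox9 at 0.46 as the largest above background in both RNAs. The part of the growth state or of other cells in the members' differences was not tested. In a bulk RNA, more cells that express a gene cannot be told apart from more of its RNA per cell.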

How the data were processed

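Total RNA of the MEFs labelled KO and WT was hybridised to 2 arrays as a dye swap. Per the file headers, the authors read the scans with Agilent Feature Extraction 10.5.1.1 and deposited, for each of 45018 spots, the mean signal and local background as intensity and the software's log10 ratio of Cy5 over Cy3. The authors' deposited table of log2 ratios equalled the log2 of KO over WT from the software's processed signals, with both arrays turned the same way. Its medians were -0.018 and 0.037. Probe positions are those of the files (mm8), and a probe's place in an exon or untranslated region was not analysed here. Both arrays lay on the same slide.

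Background correction used normexp with an offset of 50 in limma 3.58.1 (R 4.3.3), followed by loess within each array. The offset pulls dim ratios towards 0. The 1639 control spots, and 390 and 378 outlier spots, were left out, spots of a probe were averaged, and the second array was turned. A probe counted as above background in an RNA where the software flagged a share of 0.5 or more of its spots so on both arrays. A bound sets the brighter RNA against the dim probe's own signal or the lowest signal above background, whichever is higher, on each array, after loess and Aquantile. Usual spread was taken over probes of like intensity in 10 bins. The number of arrays limits the precision. The calling rule was run on simulated data with changes larger than 2-fold, for probes above background in both RNAs. Probes above background in only a single RNA, changes near 2-fold and differences between embryos were not simulated.

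Genes were matched by name, by RefSeq accession, or by a synonym. The members and gene lists were chosen with earlier results of these data known. The genes named were all members, Igf2, Igf2r, Lats2, and from each other list those called or, where none was, the gene with the largest ratio above background in both RNAs, apart from those said to be named later. Alternatives were the software's ratios, the authors' table, median centring, offset 10, no background subtraction, outlier spots kept, the mean over probes, each array alone, no filter on background, a 1.5-fold threshold and a t-test on the 2 arrays. Sequences are from RefSeq tables.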

Additional observations from a re-analysis of the deposited data

How the results depend on the processing

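Dlk1, Meg3 and Grb10 were called higher, and 0 members lower, under every alternative that kept them in, except the methods' t-test after Benjamini-Hochberg, and Ndn under all of these but median centring. Among 90 recomputed member ratios 67 stayed within 1 SD between arrays, 23 did not, and 0 called ratios changed sign. These 90 count the authors' table and the software's ratios separately, although both hold the same values apart from rounding. The software's ratios and the authors' table each gave 941 genes higher and 866 lower over all genes, 6 and 4 among other imprinted genes, and a members' median of 0.70. Median centring gave 250 and 138 over all genes, which is 64.4% higher against 53.1% here. Offset 10 gave 6 and 2 among other imprinted genes and a members' median of 0.65, and no background subtraction gave 5 higher and a median of 0.48. The mean over all probes gave a median of 0.19 and Lats2 at 0.35. A 1.5-fold threshold gave 1118 genes higher and 1139 lower, with 9 and 2 among other imprinted genes. The methods' t-test, limited to 1 degree of freedom and comparing the hybridised RNAs, kept 4 members and 408 genes higher and 358 lower at an unadjusted p under 0.05. After Benjamini-Hochberg it called 0 members and 0 genes either way. Leaving out Meg3, an alternative chosen after seeing the data, gave 3 members higher and a median of 0.057. The median of all 10 lies midway between H19 at 0.06 and Peg3 at 0.70, so leaving out any member from Peg3 upwards gives that value too. With a single array the members called higher stayed at 4, the members' median was 0.34 to 0.42, and genes called higher over all ranged from 521 to 561 and lower from 466 to 538. Lats2 ranged from 0.52 to 0.60, and other imprinted genes called higher numbered 4 on either array. The cause of these shifts was not tested, apart from the offset, which by its construction shrinks dim ratios. No paired analysis was possible because each ratio already pairs the 2 RNAs of an array, and each dye orientation holds a single array. Signal over background limits H19, Cdkn1c, Peg3, Mest and Peg10, whose probes lie near the background level.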
